A study of Mus musculus with 18 samples.

Results

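Ammonia released from amino acids is disposed of in the liver by the urea cycle and by glutamine synthesis, and the genes of these 2 routes were followed here through a high-fat diet with and without AIM. Of 9 genes listed by symbol (Nags, Cps1, Otc, Slc25a15, Ass1, Asl, Arg1, Gls2 and Glul), 8 had a probe set assigned to them alone on the array, and for each the probe set with the highest mean was used. All 8 passed the filter on dim probe sets, among 14694 genes tested. Gls2, the liver form of glutaminase, was not analysed here. The samples were livers of C57BL/6 mice in 6 groups of 3: AIM-/- mice (AIM-KO) and AIM+/+ mice (WT), each on normal chow, after 12 weeks of high-fat diet (HFD) and after 20 weeks of HFD. AIM (apoptosis inhibitor of macrophages, gene Cd5l) is a protein secreted by tissue macrophages. The labels name the 3 samples of a group biological replicates without saying whether each is 1 animal, so p-values measure the spread between these samples. Neither the age nor the sex of the mice was given, and time on the diet cannot be told apart from age.

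In the urea cycle, Cps1 joins ammonia and bicarbonate to carbamoyl phosphate in mitochondria, a step that needs the activator made by Nags, and Otc passes the carbamoyl group to ornithine. Ornithine enters and citrulline leaves the mitochondrion through the carrier Slc25a15, and in the cytosol Ass1, Asl and Arg1 complete the cycle and release urea. These enzymes are known to be strongest in hepatocytes near the portal vein. Glul, glutamine synthetase, is known from a narrow layer of hepatocytes around the central vein, where it binds ammonia that the cycle has left.

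Each sample was hybridised to 1 Affymetrix Mouse Genome array, and the deposited values were linear intensities scaled to 1 trimmed mean per array, with array medians between 15 and 21.1. An intensity is compared here only with the same probe set on other arrays. The labels were borne out by Cd5l, which had intensities of 4.0 to 23.5 on the 9 AIM-KO arrays, against 702.6 to 1926.8 on the 9 WT arrays. Liver was marked by Alb, at 6138.8 to 11103.8 on all 18 arrays. Markers of acinar pancreas were not all low. Cpa1 stayed at 0.4 to 3.6 and Ctrb1 at 0.8 to 15.9, but Prss2 ran from 1.4 to 53.5 and Cela1 from 152.9 to 660.2. Before the results, 2 features of single arrays matter. Xist, the RNA that coats an inactive X chromosome, was high on 4 arrays, namely all 3 of AIM-KO at 20 weeks and replicate 2 of WT at 20 weeks. The ratio of the 3' to the 5' actin control probe sets, which goes up as RNA is degraded, lay between 2.25 and 4.22, with the highest values in WT replicates 1 and 3 at 20 weeks (3.64 and 4.22) and WT replicate 2 at 12 weeks (3.79).

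Promoter sequence is shown for 3 genes that fell in one of the diet comparisons and for Glul, the gene that rose. Windows of 250 bases before to 50 bases after the start site came from RefSeq (GRCm38.p6), which held 6 windows for 5 of the genes. They are Otc at chrX:10252055-10252354, Nags at chr11:102145263-102145562, Ass1 at chr2:31470020-31470319 and Glul at chr1:153899679-153899978, all on the + strand. Capitals mark matches on either strand to a C/EBP-like motif, TTNNGNAA, named for a family of liver transcription factors.
Otc: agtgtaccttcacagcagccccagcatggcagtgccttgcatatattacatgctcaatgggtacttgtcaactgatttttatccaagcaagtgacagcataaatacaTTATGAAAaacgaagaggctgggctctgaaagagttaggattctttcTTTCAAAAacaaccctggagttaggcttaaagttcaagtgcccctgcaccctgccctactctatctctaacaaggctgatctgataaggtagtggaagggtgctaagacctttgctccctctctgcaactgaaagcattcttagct
Nags: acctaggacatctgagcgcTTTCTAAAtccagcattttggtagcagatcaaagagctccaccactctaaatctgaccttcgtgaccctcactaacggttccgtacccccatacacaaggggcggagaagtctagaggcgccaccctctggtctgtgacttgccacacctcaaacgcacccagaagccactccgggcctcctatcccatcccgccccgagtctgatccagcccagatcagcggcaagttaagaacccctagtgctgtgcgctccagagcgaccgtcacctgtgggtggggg
Ass1: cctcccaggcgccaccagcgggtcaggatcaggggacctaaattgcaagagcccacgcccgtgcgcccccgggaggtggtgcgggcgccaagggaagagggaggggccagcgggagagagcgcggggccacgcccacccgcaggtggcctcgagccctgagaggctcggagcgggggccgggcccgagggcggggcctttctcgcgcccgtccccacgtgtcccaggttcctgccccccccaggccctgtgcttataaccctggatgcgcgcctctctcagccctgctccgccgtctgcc
Glul: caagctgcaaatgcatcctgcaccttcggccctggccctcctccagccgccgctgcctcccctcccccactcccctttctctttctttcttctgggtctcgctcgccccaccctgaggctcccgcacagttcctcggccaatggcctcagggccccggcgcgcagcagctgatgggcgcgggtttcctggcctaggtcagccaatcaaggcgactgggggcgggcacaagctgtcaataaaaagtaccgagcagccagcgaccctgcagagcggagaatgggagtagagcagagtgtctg
The Otc window held 2 such matches, beginning at -143 and -96 from the start site, and the Nags window held 1, at -231. The start site of the Otc window lies downstream of the first base of the gene, chrX:10252230. This motif occurs in 40.7% of 32851 promoter windows, so a match is a description of the letters and no more. Searches on both strands for TGACGTCA (in 1.79% of windows), TGACGCAA (0.49%), a glucocorticoid receptor-like motif (0.475%) and an HNF4-like motif (2.31%) gave no match in the 6 windows. The share of G and C was 44.3% in the Otc window, 57.7% in the Nags window, 74.0% in the Ass1 window and 64.3% in the Glul window, against a median of 52.7% over all windows.

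The first question was what 12 weeks of HFD did in livers without AIM. Of the 8 genes, 6 fell and 1 rose: Cps1, Otc, Slc25a15, Ass1, Asl and Arg1 were lower by 1.36-fold to 3.06-fold, and Glul was 1.77-fold higher, than in AIM-KO livers on chow (limma, adjusted p below the threshold of 0.05 over all 14694 genes). In this comparison 18.1% of all genes were called, with 6.78% of all genes called lower and 11.4% called higher. The median change over the 8 genes was -0.61 on the log2 scale, against 0.04 over all genes. Changes are given throughout on the scale of log2(intensity + 3.3), which understates the change of dim probe sets.

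Cps1, Otc and Slc25a15 of the mitochondrial steps were read from bright probe sets, and Nags from a dimmer one. Cps1 (probe set 1455540_at) had intensities of 4622.5, 4507.2 and 5901.7 in AIM-KO livers at 12 weeks, against 8764.6, 8955.6 and 9219.8 in AIM-KO livers on chow. No array of one group reached the other group's range, as in 34.8% of all genes (14.4% with all diet arrays below and 20.4% above). The log2 change of Cps1 was -0.85 ± 0.14 (SE; limma, Benjamini-Hochberg adjusted p = 0.00027). Otc (1420525_a_at) had 3599.9, 3613.7 and 4196.9 at 12 weeks, against 6012.8, 6084.7 and 6043.1 on chow, again without overlap. It changed by -0.67 ± 0.11 (adjusted p = 0.00041), and the 3 chow values of Otc were the closest set of the gene, with a mean of 6047 ± 36.1 (SD, n = 3). Slc25a15 (1420967_at) had 2763.2, 2600.3 and 3105.8 at 12 weeks, against 3975.0, 3908.3 and 3600.9 on chow. Its ranges did not overlap either, and its change of -0.44 ± 0.10 (adjusted p = 0.0045) was the smallest of the 6 falls. Nags (1425230_at), which makes the activator of Cps1, had 195.9, 182.7 and 182.4 at 12 weeks, against 295.7, 258.2 and 194.6 on chow. The third chow array overlapped the diet group, and the change of -0.39 ± 0.15 did not pass (adjusted p = 0.073).

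The cytosolic enzymes Ass1 and Asl had the largest changes among the 8 genes. Ass1 (1459937_at), which joins citrulline to aspartate, had 54.2, 50.2 and 71.2 at 12 weeks in AIM-KO livers, against 165.5, 218.7 and 172.0 on chow. The groups did not overlap, and the change was -1.61 ± 0.45 (adjusted p = 0.018). This call was lost on leaving out any of 3 arrays: AIM-KO chow replicate 2 (adjusted p = 0.065), AIM-KO 12-week replicate 1 (0.06) or replicate 2 (0.067). Asl (1448350_at), which splits argininosuccinate into arginine and fumarate, had 758.0, 721.2 and 1234.0 at 12 weeks, against 2034.6, 1999.6 and 2348.4 on chow. All 3 diet arrays lay below all chow arrays, with a change of -1.27 ± 0.26 (adjusted p = 0.0024). Arg1 (1419549_at), which releases urea from arginine, had 5162.1, 4843.4 and 5618.3 at 12 weeks, against 7296.1, 7684.1 and 7683.7 on chow. The ranges were apart by more than the width of either, and the change was -0.54 ± 0.11 (adjusted p = 0.0015).

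Glul moved the other way. Its brightest probe set (1426236_a_at) had 5043.4, 4640.5 and 4374.6 in AIM-KO livers at 12 weeks, against 1510.2, 3601.2 and 3391.7 in AIM-KO livers on chow. Every diet array was above every chow array, although the first chow array was far below the other two. The change was 0.82 ± 0.22 (adjusted p = 0.014), and it did not pass without AIM-KO 12-week replicate 1 (0.77, adjusted p = 0.06). Part of the falls went with brightness: the 200 brightest genes had a median change of -0.30 in this comparison, with 96 of them called lower. After quantile normalization, which gives every array the same distribution of values, all 7 calls were kept. The changes were then -0.59 for Cps1, -0.44 for Otc, -0.27 for Slc25a15, -1.69 for Ass1, -1.20 for Asl, -0.26 for Arg1 and 1.04 for Glul. In whole liver, fewer cells of a type and less RNA per cell cannot be told apart.

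**Figure D1:**
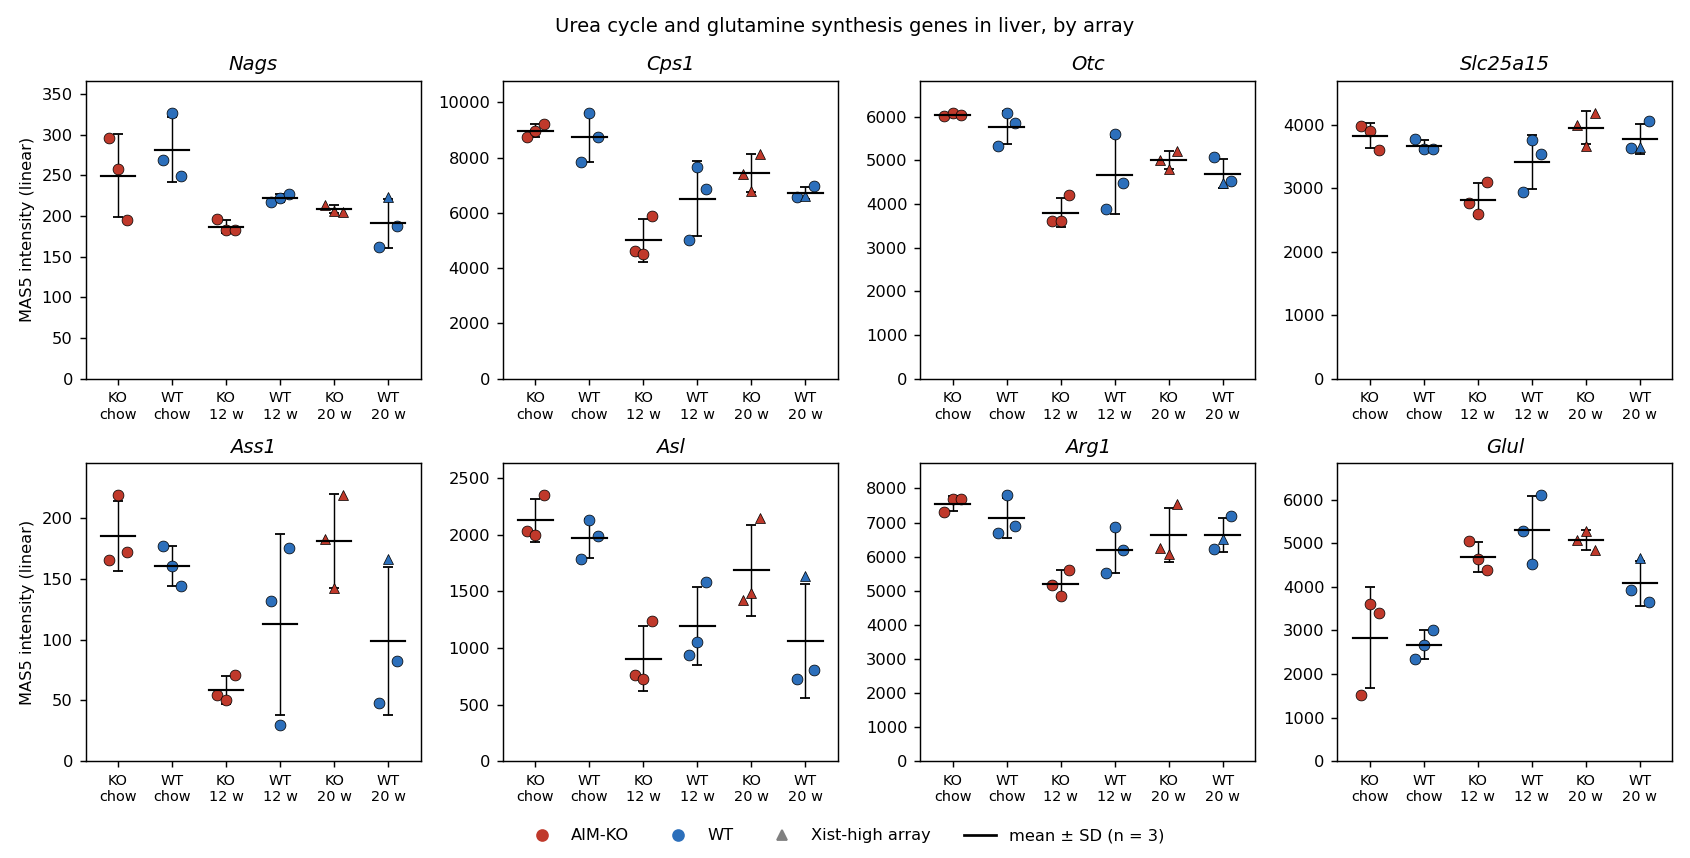
Linear MAS5 intensity (y axis, from 0) of each gene's probe set on each array, by group (x axis), with AIM-KO in red and WT in blue, triangles for Xist-high arrays, and black lines for the mean ± SD of 3 arrays. At 12 weeks the AIM-KO arrays lie below the AIM-KO chow arrays for Cps1, Otc, Slc25a15, Ass1, Asl and Arg1 and above them for Glul. Of all genes, 34.8% have no overlap between these groups. The WT 20-week triangle lies away from the other WT arrays at 20 weeks for Ass1 and Asl.

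In WT livers, 12 weeks of HFD changed 1 of the 8 genes by the same test, Glul, where 5.14% of all genes were called. Glul had 5281.2, 4532.3 and 6098.9 in WT livers at 12 weeks, against 2340.5, 2661.4 and 3016.4 on chow. The groups did not overlap, as in 23.9% of all genes, with a 1.98-fold rise (log2 change 0.99 ± 0.22, adjusted p = 0.013). The call was lost without WT 12-week replicate 1 (0.98, adjusted p = 0.052) or replicate 3 (0.88, adjusted p = 0.056). The other 7 genes had changes from -0.81 for Ass1 to -0.11 for Slc25a15, all below 0, and none passed on the brightest probe sets. On another Otc probe set, 1425540_at, the fall passed (-0.77 ± 0.19, adjusted p = 0.02). Cps1 was nearest, with 5019.3, 7680.0 and 6851.4 at 12 weeks, against 7842.8, 9621.9 and 8737.3 on chow. No WT diet array of Cps1 reached the chow range, and the change was -0.44 ± 0.14 (adjusted p = 0.067). Replicate 2 of WT at 12 weeks was the highest of its group for Cps1, Otc (5612.5, against 3879.0 and 4469.5 on the other two) and Arg1 (6864.0, against 5515.8 and 6198.4) and the lowest for Ass1 (30.1, against 132.1 and 175.2). It is also the array with the actin ratio of 3.79. With a term for that ratio, the WT changes at 12 weeks were -0.49 for Cps1 (adjusted p = 0.03), -0.38 for Otc (adjusted p = 0.034) and -0.51 for Ass1 (adjusted p = 0.47). Without the array, Cps1 (-0.57, adjusted p = 0.022) and Otc (-0.47, adjusted p = 0.012) were called in WT at 12 weeks beside Glul (1.09, adjusted p = 0.016), while the change of Ass1 shrank to -0.07 (adjusted p = 0.94).

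Whether the 12-week diet effect differed between genotypes was tested directly. The difference, AIM-KO minus WT, was below 0 for all 8 genes, from -0.80 for Ass1 to -0.06 for Nags, and none was called by limma (0.00681% of all genes were, 1 gene). Unadjusted, 4 of the 8 had a p under 0.05, against 9.44% of all genes. They were Cps1 (-0.41 ± 0.19, adjusted p = 0.52), Otc (-0.35 ± 0.16, adjusted p = 0.51), Arg1 (-0.33 ± 0.15, adjusted p = 0.50) and Slc25a15 (-0.33 ± 0.14, adjusted p = 0.48), the 4 bright members of the cycle. The 200 brightest genes had a median difference of -0.20, and after quantile normalization the 4 values were -0.23, -0.23, -0.15 and -0.21. Without WT 12-week replicate 2 they were -0.28, -0.21, -0.26 and -0.26, with no unadjusted p under 0.05 (0.14, 0.14, 0.11 and 0.09). The difference for Ass1 then became -1.54 (unadjusted p = 0.003, adjusted p = 0.36), on a dim probe set. A brighter probe set, listed under both Ass1 and Gm5424, gave -0.23 ± 0.32 with all arrays (limma, adjusted p = 0.88). It was looked at after its values were seen, and it was not fitted without that array. For Glul the difference was -0.16, with a 95% interval from -0.82 to 0.50. The 7 calls in AIM-KO livers and the single call in WT livers are therefore not shown to differ between the genotypes.

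Set side by side at 12 weeks, AIM-KO livers were lower than WT livers in all 8 genes by estimates of -0.61 to -0.17, and no gene was called (limma, 0.0749% of all genes called). The same 4 genes had an unadjusted p under 0.05, against 8.38% of all genes. Cps1 differed by -0.37 (95% interval -0.65 to -0.08, adjusted p = 0.41), Otc by -0.28 (-0.51 to -0.04), Arg1 by -0.25 (-0.47 to -0.03) and Slc25a15 by -0.27 (-0.48 to -0.06). The 200 brightest genes had a median difference of -0.16, against 0.01 over all genes. After quantile normalization the 4 values were -0.22, -0.19, -0.10 and -0.18, with Arg1 no longer at an unadjusted p under 0.05. Nags was the gene whose groups did not overlap, as in 16% of all genes, with 195.9, 182.7 and 182.4 in AIM-KO livers, against 217.0, 222.0 and 227.6 in WT livers. Its difference of -0.25 ± 0.15 did not pass either (adjusted p = 0.69). With WT 12-week replicate 1 left out, Cps1 alone was called (-0.54, adjusted p = 0.048). With WT 12-week replicate 2 left out, Cps1 differed by -0.24, Otc by -0.13, Arg1 by -0.17 and Slc25a15 by -0.20, none at an unadjusted p under 0.05. Ass1 then differed by -1.35 (unadjusted p = 0.00084, adjusted p = 0.26) in place of -0.61. The brighter probe set listed under both Ass1 and Gm5424 differed by -0.16 ± 0.22 with all arrays (limma, adjusted p = 0.92).

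**Figure D2:**
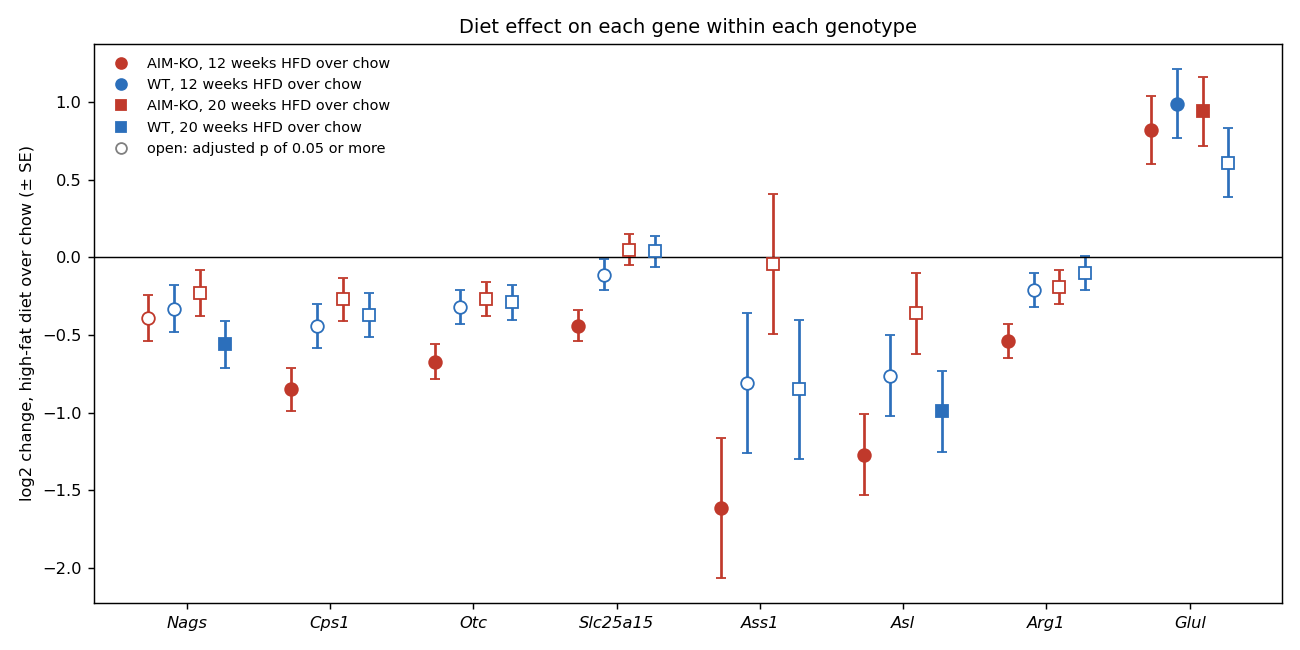
Log2 change on HFD over chow (y axis, ± SE from limma) of each gene (x axis) in AIM-KO (red) and WT (blue) at 12 weeks (circles) and 20 weeks (squares), filled where the adjusted p is under 0.05. For the 7 genes of the cycle the 12-week AIM-KO point is the lowest except for Nags, where WT at 20 weeks is, and the 4 Glul points lie between 0.61 and 0.99.

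At 20 weeks of HFD the only gene of the 8 called in AIM-KO livers was Glul, where 6.96% of all genes were called. Glul had 5084.2, 5291.4 and 4849.0 at 20 weeks, against 1510.2, 3601.2 and 3391.7 on chow. The ranges did not overlap, as in 24.0% of all genes, and the 1.92-fold rise (0.94 ± 0.22) had an adjusted p of 0.014. Leaving out AIM-KO 20-week replicate 2 gave 0.91 (adjusted p = 0.058). Cps1 averaged 7449 ± 680 at 20 weeks and 8980 ± 229 on chow (SD, n = 3 each), a change of -0.27 (adjusted p = 0.27). Ass1 averaged 181 ± 38.3 at 20 weeks and 185 ± 29.0 on chow, a change of -0.04 with a 95% interval from -0.99 to 0.91. All 3 AIM-KO arrays at 20 weeks were Xist-high while all chow arrays were Xist-low, so this contrast leans on WT replicate 2 for any separation of the 2. With a term for Xist-high arrays, the change of Glul was 0.65 (adjusted p = 0.49) and that of Asl -1.45 (adjusted p = 0.064) in place of -0.36 (adjusted p = 0.51). With the same term Ass1 changed by -1.40 (adjusted p = 0.41) and Nags by -0.58 (adjusted p = 0.29) in place of -0.23.

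In WT livers at 20 weeks, Asl and Nags fell, where 14.5% of all genes were called. Asl had 729.7, 1638.8 and 805.1 in WT livers at 20 weeks, against 1783.0, 2131.4 and 1987.2 on chow. Every diet array was below every chow array, with replicate 2 close to the chow range, and the fall was 1.98-fold (-0.99 ± 0.26, adjusted p = 0.016). Nags had 162.0, 222.8 and 187.7 at 20 weeks, against 269.1, 326.7 and 249.1 on chow. Here too the groups were apart, by a log2 change of -0.56 ± 0.15 (adjusted p = 0.014). In this comparison 29.1% of all genes had no overlap between the groups. Asl was not called without WT chow replicate 2 (-0.93, adjusted p = 0.063) or 3 (-0.98, adjusted p = 0.051), or without WT 20-week replicate 1 (-0.77, adjusted p = 0.094) or 3 (-0.84, adjusted p = 0.079), and Nags was not called without WT chow replicate 2 (-0.45, adjusted p = 0.087) or WT 20-week replicate 1 (-0.45, adjusted p = 0.082). Glul had 3932.6, 4653.8 and 3662.1 at 20 weeks, all above the chow arrays, but its change of 0.61 ± 0.22 did not pass (adjusted p = 0.074), though it did after quantile normalization (0.68, adjusted p = 0.044). With a term for the actin ratio, which was 3.64, 2.54 and 4.22 on these 3 arrays, Asl (-0.75, adjusted p = 0.11) and Nags (-0.52, adjusted p = 0.056) were no longer called, while Cps1 (-0.50, adjusted p = 0.03), Otc (-0.42, adjusted p = 0.019) and Glul (0.82, adjusted p = 0.032) were. A term for Xist-high arrays went the other way. With it Asl (-1.35, adjusted p = 0.0006) and Nags (-0.67, adjusted p = 0.0054) were called. Cps1 (-0.36, adjusted p = 0.12), Otc (-0.26, adjusted p = 0.17) and Glul (0.51, adjusted p = 0.18) were not. In the main fit, without either term, the Slc25a15 and Arg1 changes were 0.04 and -0.10, and that of Ass1 was -0.85 (limma, adjusted p = 0.24).

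Between genotypes at 20 weeks no gene of the 8 was called by limma, where 0.157% of all genes were, and 2 had an unadjusted p under 0.05, against 13.4% of all genes. Asl had 1423.9, 1482.6 and 2151.3 in AIM-KO livers, against 729.7, 1638.8 and 805.1 in WT livers. The Xist-high WT array lay inside the AIM-KO range and the other two WT arrays lay below it. The difference was 0.74 ± 0.26 (95% interval 0.19 to 1.30, adjusted p = 0.22). Ass1 followed the same layout, with 182.6, 142.2 and 218.8 in AIM-KO livers, against 48.0, 166.3 and 82.3 in WT livers, and a difference of 1.0 ± 0.45 (adjusted p = 0.34). In 4 of the 8 genes (Nags, Ass1, Asl and Glul), the Xist-high WT array and all AIM-KO arrays were above both Xist-low WT arrays, as in 13.3% of all genes. This count is for the brightest probe sets. Otc on 1425540_at and Slc25a15 on 1420966_at had the same layout, and Otc on 1436615_a_at did not. Their genotype differences were 0.71 (limma, unadjusted p = 0.0012, adjusted p = 0.1), 0.45 (0.028 and 0.3) and 0.37 (0.021 and 0.27), in that order. Without WT replicate 2, Asl was called (1.11 ± 0.23, adjusted p = 0.0077), as were 948 genes in all in place of 23, and the 2 genotypes then did not share a side of Xist. With a term for Xist-high arrays the difference was 0.02 for Asl and 0.10 for Ass1. On these 6 arrays the actin ratio was at most 2.61 on the Xist-high ones and at least 3.64 on the others, so Xist and RNA quality cannot be told apart there, and 1 array, WT replicate 2, separates either from genotype. The difference of the 20-week diet effect between genotypes was called for none of the 8 genes and 0% of all genes (limma; 0 of the 8 and 10.2% of all genes at an unadjusted p under 0.05), with 0.63 ± 0.37 for Asl and 0.33 ± 0.31 for Glul.

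**Figure D3:**
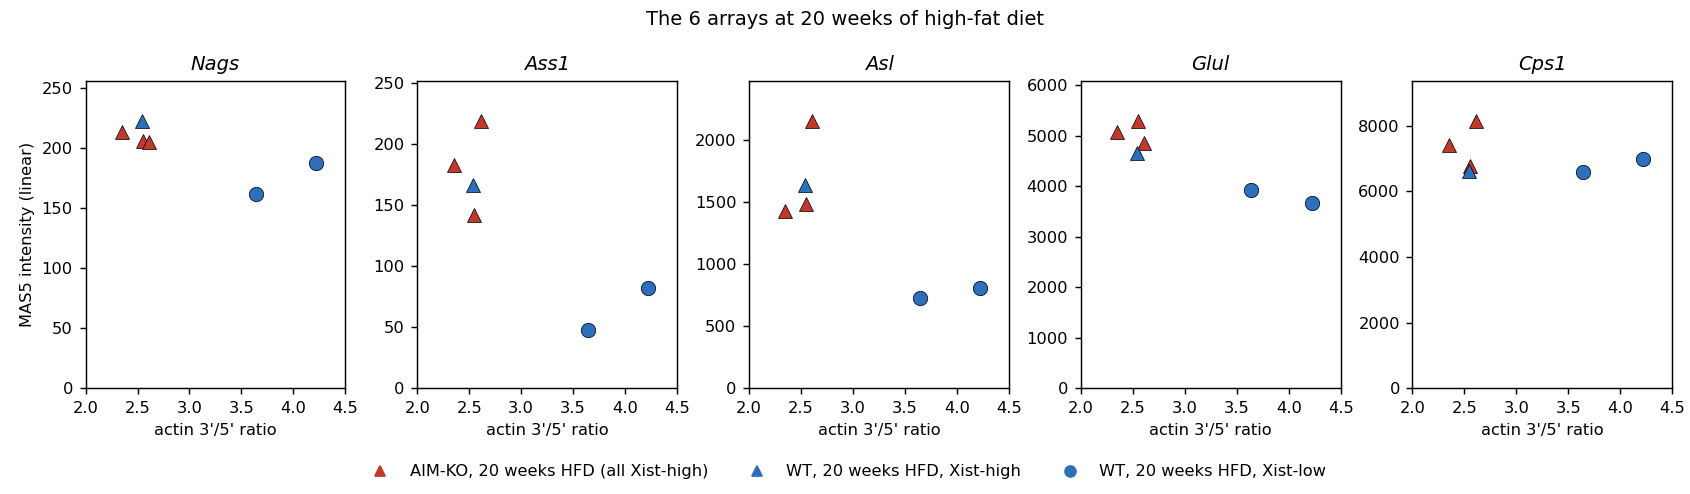
Linear MAS5 intensity (y axis, from 0) against the actin 3'/5' ratio (x axis) on the 6 arrays at 20 weeks of HFD, for 5 of the genes, with AIM-KO in red, WT in blue and triangles for Xist-high arrays. The WT triangle sits with the AIM-KO arrays at a ratio of 2.54, and the WT circles, at 3.64 and 4.22, are the lowest 2 arrays for Nags, Ass1, Asl and Glul, while for Cps1 the WT triangle lies between them.

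On chow, loss of AIM moved none of the 8 genes past the test (limma, 0.0272% of all genes called, 0 of the 8 at an unadjusted p under 0.05, against 7.24% of all genes). The differences lay between -0.18 for Nags and 0.20 for Ass1. Intervals were narrow for the bright genes, from -0.24 to 0.33 for Cps1 and from -0.15 to 0.27 for Slc25a15, and wide for Ass1, from -0.75 to 1.14. Averaged over the 3 diets, the genotype difference was between -0.10 and 0.20, again with none of the 8 called, 0.0272% of all genes called, and 0 of the 8 at an unadjusted p under 0.05 against 6.76% of all genes.

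Ordered by mean intensity, the 12-week AIM-KO group was the lowest of the 6 for all 7 genes of the cycle. The share of all genes with this group lowest was not taken. The 200 brightest genes had a median change of -0.30 from chow in this group. For Nags the group averaged 187 ± 7.71, against 191 ± 30.5 in WT livers at 20 weeks (SD, n = 3 each), with overlapping ranges. For Cps1 it averaged 5010 ± 774, below WT at 12 weeks at 6517 ± 1362, and for Otc 3804 ± 341, below WT at 12 weeks at 4654 ± 881 (SD, n = 3 each). The ranges of these neighbours overlapped for both genes. Both chow groups headed the order for Cps1, Otc, Asl, Arg1 and Nags, with AIM-KO chow above WT chow in all of these but Nags, by less than the larger SD each time. For Slc25a15 the AIM-KO 20-week group was highest at 3954 ± 262, and the neighbours in the order did not differ beyond their spread until the last step, where 12-week AIM-KO livers averaged 2823 ± 258, below 12-week WT livers at 3414 ± 425, with 1 WT array inside the AIM-KO range. For Glul both chow groups were lowest, at 2834 ± 1152 in AIM-KO livers and 2673 ± 338 in WT livers, and WT at 20 weeks, at 4083 ± 513, was the lowest of the diet groups.

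Other probe sets of the same genes gave a second reading, although they share the arrays. Beside the 12-week fall in WT livers given above, Otc was lower at 12 weeks in AIM-KO livers on both of its others, by -1.13 ± 0.19 (1425540_at, adjusted p = 0.00037) and -0.52 ± 0.15 (1436615_a_at, adjusted p = 0.02). On these 2 it was also lower at 20 weeks in WT livers, by -1.08 (adjusted p = 0.00067) and -0.62 (adjusted p = 0.0079), where the brightest one gave -0.29 (adjusted p = 0.087). The WT 20-week values were 66.0, 100.1 and 54.1 on 1425540_at and 3735.1, 3372.6 and 2501.0 on 1436615_a_at. The actin ratios of these arrays were 3.64, 2.54 and 4.22, with the second array Xist-high. Terms for Xist or the actin ratio were not fitted on these 2 probe sets. Slc25a15 fell at 12 weeks in AIM-KO livers on 1420966_at as well (-0.65, adjusted p = 0.022). The second Glul probe set, 1426235_a_at, passed in no comparison. Its 12-week changes were 0.94 in AIM-KO livers (adjusted p = 0.093) and 0.66 in WT livers (adjusted p = 0.36). Its 20-week changes were 1.21 in AIM-KO livers (adjusted p = 0.058) and 0.21 in WT livers (adjusted p = 0.78). The Glul calls thus rest on the brightest probe set, with estimates above 0 on both.

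Around the urea cycle, 6 lists of neighbouring genes were read in the same fits. The shares of all genes called lower and higher, against which these counts stand, were 6.78% and 11.4% at 12 weeks and 2.67% and 4.29% at 20 weeks in AIM-KO livers, and 1.63% and 3.52% at 12 weeks and 5.77% and 8.72% at 20 weeks in WT livers. Of 25 tested genes that break down amino acids, the source of the ammonia, 16 fell and 0 rose at 12 weeks in AIM-KO livers, with a median change of -0.50 against 0.04 over all genes. Among them Hal, which deaminates histidine, changed by -1.69 (adjusted p = 0.0004) and Cth, which releases cysteine from cystathionine, by -1.36 (adjusted p = 5.8e-06). In WT livers 2 of the 25 fell at 12 weeks, Hal (-1.5) and Cth (-0.86), and 8 fell at 20 weeks, with Hal at -1.76 and Cth at -0.80. In AIM-KO livers at 20 weeks 2 fell, Ftcd (-0.43), also of histidine breakdown, and Tdo2 (-0.36), which opens the ring of tryptophan. None of the 25 rose in any of the 4 diet comparisons, and the medians were -0.13 for AIM-KO at 20 weeks, -0.32 for WT at 12 weeks and -0.36 for WT at 20 weeks.

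Of 20 tested ornithine, arginine and mitochondrial carrier genes, 6 fell and 3 rose at 12 weeks in AIM-KO livers, the rises being near the share of all genes called higher. The largest falls were those of Slc7a2 (-0.86), the arginine transporter typical of liver, and Srm (-0.80), spermidine synthase. Rises were led by Aldh18a1 (1.24), which starts ornithine and proline synthesis from glutamate, and Slc7a1 (1.06), an arginine transporter of most other cell types. WT livers had no call among the 20 at 12 weeks and 4 at 20 weeks, where Azin1 (0.50), which shields ornithine decarboxylase, rose and Prodh (-0.64) and Aldh4a1 (-0.54), of proline breakdown, fell. AIM-KO livers at 20 weeks had 1 call, Srm (-0.86).

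Among 20 tested glutamine, glutamate and ammonia genes, 6 fell and 2 rose at 12 weeks in AIM-KO livers, where the rises were again near the share of all genes. Falls were largest for Got1 (-1.14), the aspartate aminotransferase of the cytosol, and Slc38a3 (-0.92), a glutamine transporter of hepatocytes. The rises were Rhbg (1.35), an ammonia channel of central vein hepatocytes, and Sirt5 (0.50), which removes acyl groups from Cps1 protein. Sirt5 was called higher in WT livers too, by 0.50 after 12 weeks (adjusted p = 0.035) and by 0.47 after 20 weeks (adjusted p = 0.024). Slc38a2 (-0.77), another glutamine transporter, fell at 12 weeks in WT livers, Gpt2 (0.42) rose and Slc38a3 (-0.46) and Got2 (-0.41) fell at 20 weeks in WT livers, and Gfpt1 (-0.72), which uses glutamine to make hexosamines, fell at 20 weeks in AIM-KO livers.

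Of 14 tested regulators of urea cycle genes, 4 fell at 12 weeks in AIM-KO livers and 0 rose. Hnf4a, a nuclear receptor that keeps hepatocyte genes active, changed by -0.57 (adjusted p = 0.003) there, by -0.45 (adjusted p = 0.037) in WT livers at 12 weeks and by -0.65 (adjusted p = 0.0014) in WT livers at 20 weeks. Klf15, a factor induced in fasting that acts on amino acid breakdown, changed by -0.85 (adjusted p = 0.038) at 12 weeks in AIM-KO livers. Cebpb, of the C/EBP family, rose by 0.55 (adjusted p = 0.033) at 20 weeks in WT livers. No regulator was called at 20 weeks in AIM-KO livers.

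Zonation genes were called in both directions, with rises at 12 weeks in AIM-KO livers near the 11.4% of all genes called higher. Of 16 tested central vein genes, 2 rose and 5 fell at 12 weeks in AIM-KO livers, with Slc13a3 (1.92), a dicarboxylate carrier, and Rhbg rising and Cyp1a2 (-1.99) and Cyp2c37 (-1.63), of a family of close copies, falling. Slc13a3 rose and Cyp1a2 fell in all 4 diet comparisons, by 1.31 to 1.92 and -2.15 to -1.32. Tbx3 (0.85), a factor of central vein hepatocytes, was higher at 20 weeks in AIM-KO livers. Of 15 tested portal genes, 2 rose and 6 fell at 12 weeks in AIM-KO livers, where Apoa4 (3.11), a lipoprotein component, and Hsd17b13 (0.71), of lipid droplets, rose and Hal and Ftcd (-0.57) fell. In WT livers at 20 weeks 2 of them rose (Apoa4 at 3.66 and Hsd17b13 at 0.71) and 7 fell, led by Hal and Hsd17b6 (-1.38). Cdh1, E-cadherin, was lower at 20 weeks in AIM-KO livers (-1.54) and in WT livers at 12 weeks (-1.58) and 20 weeks (-1.34). Cyp2f2, a portal P450, was lower in all 4 diet comparisons, by -0.57 to -0.44. No gene of the 6 lists was called between genotypes at any diet stage.

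**Figure D4:**
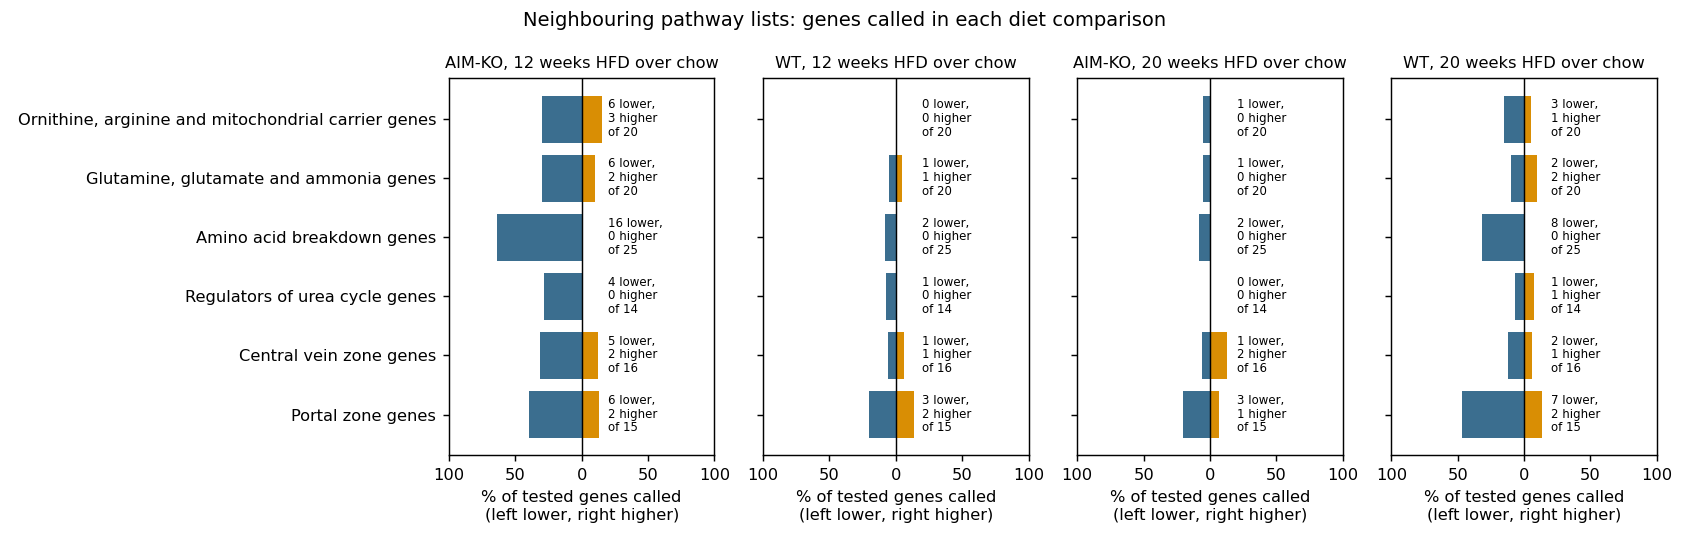
Share of the tested genes of each list (rows) called lower (left, blue) or higher (right, orange) on HFD over chow, in percent (x axis), for the 4 diet comparisons. Amino acid breakdown genes were called lower in 16, 2, 2 and 8 of 25 from the left panel to the right, and higher in none.

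Cell type markers were read in the same diet comparisons. At 12 weeks in AIM-KO livers 6.78% of all genes were called lower and 11.4% higher, and at 20 weeks in WT livers 5.77% and 8.72%. Of 8 tested hepatocyte markers, 5 fell and 0 rose at 12 weeks in AIM-KO livers (median -0.38), with a summed intensity of 55035 to 58920 per array, against 73144 to 76162 on chow. All 8 Kupffer cell and macrophage markers were tested, and 4 rose there, with sums of 3776 to 4834, against 2373 to 2844. All 7 stellate cell markers were tested, and 5 rose, with sums of 1485 to 1916, against 768 to 809. At 20 weeks in WT livers, 2 hepatocyte markers fell (sums of 63350 to 77813, against 66554 to 84548 on chow), 4 macrophage markers rose (3933 to 4874, against 2716 to 2912) and 6 stellate cell markers rose (1963 to 2660, against 828 to 979). Of 6 liver endothelium markers, all tested, 2 rose at 12 weeks in AIM-KO livers, Lyve1 (1.39, adjusted p = 0.00022) and Cdh5 (0.67, adjusted p = 0.027), with sums of 1303 to 1527, against 990 to 1106 on chow. Lyve1 also rose in WT livers, by 1.48 at 12 weeks and 1.97 at 20 weeks. Of 6 cholangiocyte markers 4 were tested, with sums of 55.5 to 62.0 at 12 weeks in AIM-KO livers, against 34.4 to 68.2 on chow, and of 6 T cell markers 3 were, with sums of 40.9 to 53.2, against 37.3 to 48.2. In AIM-KO livers at 20 weeks 0 of the 8 hepatocyte and 0 of the 8 macrophage markers were called, while 4 of the 7 stellate cell markers rose. In WT livers at 12 weeks these counts were 0, 0 and 2. Hepatocyte markers are bright, and the 200 brightest genes had a median change of -0.30 at 12 weeks in AIM-KO livers, with 96 called lower. The part of cell type shares in the falls of the urea cycle genes was not tested.

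The genes closest in pattern to each member, by the root mean square difference of mean-centred log2 values over the 18 arrays, are given as a description. Cps1 was closest to Gnmt (0.083) and Ahcy (0.108), both of methionine breakdown, whose 12-week changes in AIM-KO livers were -0.98 and -0.76. Otc was closest to Fgg (0.085) and Fgb (0.087), the fibrinogen chains, and Arg1 to Mtarc2 (0.074) and Serpinc1 (0.077). Slc25a15 lay near Hgd (0.071), of tyrosine breakdown, and Mmut (0.096), and Asl near Slc17a2 (0.202) and Pipox (0.209). Nags lay near Pitpnb (0.126) and Mettl26 (0.127). For Ass1 the closest genes, Tk1 (0.44) and Notum (0.467), were far away beside its own spread of 0.815. Glul was closest to Rdh9 (0.168) and Vwa8 (0.214), which changed by 0.73 and 0.72 at 12 weeks and by 0.82 and 0.89 at 20 weeks in AIM-KO livers.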

How the data were processed

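RNA of 18 liver samples was measured on 1 Affymetrix mouse genome array each, 3 per group. The deposited table holds the authors' linear intensities of 45101 probe sets, made with MAS5 per the submitters' processing notes (version not given in the sources used here) and found here to share a 2% trimmed mean of 100 on every array. Gene symbols came from the platform annotation. Of the probe sets, 34945 had 1 gene, 932 several and 9160 none, and 64 were controls. By gene ID, 34741 were matched to a GRCm38.p6 table and took its symbol. Values were taken as log2(intensity + 3.3), 3.3 being the 20th percentile of all values, filtered to probe sets that exceeded the 40th percentile of the array on 3 or more arrays, and reduced to the brightest probe set per gene. One limma 3.58.1 fit (R 4.3.3) of the 6 group means with an intensity trend gave 10 comparisons, with Benjamini-Hochberg adjustment over 14694 genes, a threshold of 0.05 and 95% intervals from the fit. The fit was tested on simulated data. With 3 arrays per group the median standard error of a difference was 0.22, and the number of arrays limits precision.

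The members and lists were chosen with earlier results of these data known. All members are named, and of each list up to 2 called genes with the largest rise and 2 with the largest fall per comparison. Of the genes most like a member, the 2 nearest are named. Cd5l, Alb, Xist and the acinar pancreas markers appear as checks. Alternatives changed the pseudocount, normalization, filter, probe set rule, variance trend, a replicate block, a term for Xist or the actin ratio, and each array of the groups compared in turn. Replicate numbers were not taken as pairs in the main fit, since the labels give no pairing. Over 45 same-number pairs of arrays the correlation of deviations ran from -0.09 to 0.23, with 3 over 0.1, all of replicate 3. These values do not decide whether such samples share an origin.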

Additional observations from a re-analysis of the deposited data

How the results depend on the processing

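The count of called members kept within 1.5 times its value under every alternative for 12 weeks of HFD in AIM-KO livers (7 of 8), on chow between genotypes, averaged over diets and for both differences of diet effects, and no estimate of a called member changed sign. For 12 weeks in WT livers the count of 1 became 2 with quantile normalization (Cps1 added, -0.36), 2 with the replicate block (Cps1 added, -0.44), 2 with the Xist term (Asl added, -0.76), 3 with the actin term (Cps1 at -0.49 and Otc at -0.38 added), and 0 to 3 on leaving out 1 array. With the mean of probe sets Glul there was 0.82 (adjusted p = 0.12) and not called, and another member was called in its place. For 20 weeks in AIM-KO livers the count of 1 became 0 with the Xist term, and 0 to 1 on leaving out 1 array. For 20 weeks in WT livers the count of 2 ran from 0 to 2 on leaving out 1 array of the groups compared. Leaving out WT 12-week replicate 1 or 2, which enter that comparison through the shared spread, added Cps1 (adjusted p = 0.029) or Otc (adjusted p = 0.035), and quantile normalization added Glul (0.68, adjusted p = 0.044). Between genotypes the count of 0 reached 1 at 12 weeks and 1 at 20 weeks on leaving out 1 array, so both ran from 0 to 1. Counts over all genes ran, without 1 array, from 1710 to 2350 for 12 weeks in AIM-KO livers (2666 with all), 335 to 743 in WT livers (756), 542 to 1011 for 20 weeks in AIM-KO livers (1022; 197 with the Xist term), 1406 to 2463 in WT livers (2129), 3 to 104 between genotypes at 12 weeks (11; 3 to 19 under the other settings), 2 to 948 at 20 weeks (23; 2 to 63 under the other settings), 3 to 7 on chow (4), 3 to 55 averaged over diets (4), and 0 to 23 and 0 to 331 for the differences of diet effects at 12 and 20 weeks (1 and 0; up to 3 and 5 under the other settings). The cause was not tested. The labels do not say whether samples with the same replicate number share an origin. Beside the added Cps1 at 12 weeks, the replicate block called Cps1 in WT at 20 weeks (-0.37, adjusted p = 0.049).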

Other observations

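A probe set that the platform annotation lists under both Ass1 and Gm5424, and which was therefore not assigned to either, was brighter than the one used for Ass1. It had 868.3, 975.8 and 1545.3 in AIM-KO livers at 12 weeks, against 3383.7, 2458.9 and 2364.4 in AIM-KO livers on chow. No diet array reached the chow range, and the change was -1.30 ± 0.22 (limma, adjusted p = 0.00051). In WT livers it had 1036.8, 1063.8 and 1645.1 at 12 weeks, against 2673.7, 2684.3 and 2336.0 on chow (-1.07, adjusted p = 0.0075). At 20 weeks it had 2148.7, 2208.0 and 2571.1 in AIM-KO livers, against 1074.0, 1878.4 and 1265.5 in WT livers, the middle WT value being that of the Xist-high array. The changes from chow at 20 weeks were -0.23 (adjusted p = 0.64) in AIM-KO livers and -0.90 (adjusted p = 0.01) in WT livers. It was looked at after its values were seen. The 12-week fall in WT livers passed the test on this probe set and not on the dimmer one used for Ass1 (-0.81, adjusted p = 0.35).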
